A study of Mus musculus with 12 samples.

Results

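The mitochondrial genome of the mouse encodes the core subunits of the respiratory chain, and 6 of its protein genes belong to complexes III, IV and V. These 6 genes, CYTB, COX1, COX2, COX3, ATP6 and ATP8, were taken by symbol from a table of 35129 gene entries and were followed across 10 libraries of hand-collected cortical neurons. All 6 were found, all held counts in every library, and all passed the filter on low counts in every comparison. The other 7 mitochondrially encoded protein genes belong to complex I and are used here only as a reference.

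Sst-neurons, interneurons that make somatostatin (Sst), came from GIN mice on the FVB background and were found by their enhanced green fluorescent protein, which labels a subset of such cells. Thy1-neurons, layer V pyramidal cells, came from YFPH mice on the B6 background and were found by their yellow fluorescent protein. The mice were males of 20 g and 5 to 7 weeks, and each carried a subcutaneous mini pump for 14 days, with nicotine hydrogen tartrate at 48 mg/kg/d or with saline. The 4 groups are Sst (3 libraries), Sst+Nic (replicates 2 and 3), Thy1 (replicates 2 and 3) and Thy1+Nic (3 libraries), each library made from 30 cells of 1 mouse. The first replicates of Sst+Nic and of Thy1 were not analysed here. Each cell type comes from 1 mouse line, so cell type and strain cannot be told apart.

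The respiratory chain moves electrons along complexes of the inner mitochondrial membrane, pumps protons and so drives ATP synthesis at complex V. CYTB is cytochrome b, the mitochondrially encoded subunit of complex III. COX1, COX2 and COX3 form the catalytic core of complex IV, cytochrome c oxidase, which passes electrons to oxygen. ATP6 and ATP8 are membrane subunits of complex V, the ATP synthase. All are transcribed from the heavy-strand promoter as part of long polycistronic RNA that is later cut into single messages, so the genes are not independent readouts.

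In GRCm38, COX1 lies at MT:5328-6872, COX2 at MT:7013-7696, ATP8 at MT:7766-7969, ATP6 at MT:7927-8607, COX3 at MT:8607-9390 and CYTB at MT:14145-15288. All 6 are on the plus strand, each is 1 exon without introns, and their lengths run from 204 bases for ATP8 to 1545 bases for COX1. ATP8 and ATP6 share 43 bases, which is 21.1% of ATP8 and 6.31% of ATP6, and ATP6 and COX3 share 1 base. The joins are shown, from the GENCODE M21 transcripts of GRCm38, since fragments across them belong to both genes. In the first sequence (MT:7918-7947) the capitals mark the first codon of ATP6, in the second (MT:7955-7984) the last codon of ATP8, and in the third (MT:8592-8621) the base that ends ATP6 and starts COX3.
Start of ATP6 inside ATP8: agaattaaaATGaacgaaaatctatttgcc
End of ATP8 inside ATP6: ttaccccaacaaTAAtaggattcccaatcg
Junction of ATP6 and COX3: acatgataatacataAtgacccaccaaact
How fragments over 2 of these genes were assigned is not given in the sources used here, and the ATP8 level is the one this overlap touches most.

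Nuclear copies of the mitochondrial genome are a further limit on the counts. Among GENCODE M21 transcripts, 10 pseudogenes matched a member over at least 100 bases at 90% identity or more, and 0 of them have an entry in the table under that name. COX2 was identical to Gm28661 over 681 bases, ATP6 to Gm10925 over 678 bases and COX3 to Gm28437 over 783 bases, which all lie on chromosome 1. COX1 matched Gm13340 over its whole length at 97.6% and Gm29216, also on chromosome 1, over 483 bases (31.3% of the gene) at 99.8%, and CYTB matched Gm11410 over 1142 bases at 92.9%. The primers that the study designed for 2 of the members were searched by exact match. The ATP6 pair (84 bases, MT:8182-8265) also has both sites in Gm10925, whereas both exact sites of the COX1 pair (94 bases, MT:5953-6046) were found in 0 other transcripts. Sites with a mismatch were not searched, and Gm13340 covers that part of COX1 too.
COX1 forward primer: tactaacagaccgcaacctaaaca
COX1 reverse primer: tgcccaaagaatcagaacaga
ATP6 forward primer: ggccttttaccacatacatttaca
ATP6 reverse primer: tacggctccagctcatagtg

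Depth was high for these genes. Libraries held 2915738 to 4878326 counted fragments, and the 6 genes took 16.1% to 16.8% of them in Sst, 11.6% and 14.6% in Sst+Nic, 23.0% and 25.7% in Thy1 and 24.2% to 28.0% in Thy1+Nic. Levels are in CPM, counts per 1e6 counted fragments of the library. Most nuclear entries of the table held far fewer fragments than the study's own group values imply, so a CPM is relative to an incomplete total. The TMM-scaled fold changes, their adjusted p-values and the percentages of entries given as background rest on the same entries. For the 2 comparisons of cell types the median and the calls are also given from position-checked entries. The ratios and shares within the mitochondrial counts do not use those entries. As a check of the labels, the Sst gene, which encodes the somatostatin peptide, ran from 53779 to 126088 CPM in the Sst-neuron libraries. It was at 1.15 CPM in Thy1 replicate 2 and from 1.77 to 49.2 CPM in Thy1+Nic, but at 3795 CPM in Thy1 replicate 3, which stands apart. The main results that rest on the Thy1 group are also given without that library. Of 33 marker genes of cell types, only Sst and Cldn5 have entries in stretches of chromosomes checked by position. A stretch was ended before the first entry outside 0.3 to 3 times the study's group value, so that range holds by rule. Comparisons with group values used a scale factor for each library, fitted to the study's values of mitochondrially encoded genes. On chromosome 16, which holds both genes, 14 of the 35 compared entries of the stretch were within 1% of their group values. Sst itself was within 1% of its listed value, and Cldn5 was not compared on its own. Cldn5, an endothelial tight junction gene, was at 0 counts in 6 libraries and highest, at 35.7 CPM, in Sst replicate 2, so the part of other cells in the results was not tested.

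All 6 genes were lower in Sst-neurons than in Thy1-neurons, and the fold difference was largest for the complex V genes. Under saline, ATP6 was at 14349, 16357 and 16616 CPM in Sst against 30056 and 36805 CPM in Thy1. ATP8 was at 776, 916 and 972 CPM in Sst against 1763 and 2097 CPM in Thy1. The lowest Thy1 library was above the highest Sst library for both genes. COX1 was at 36791, 36010 and 33360 CPM in Sst and at 54320 and 56846 CPM in Thy1. COX2 was at 25389, 28234 and 28187 CPM in Sst and at 37454 and 40108 CPM in Thy1. COX3, the most abundant of the 6, was at 48016, 52434 and 49065 CPM in Sst and at 65919 and 73026 CPM in Thy1. For these complex IV genes the Thy1 libraries were again all above the Sst libraries. CYTB had the smallest fold difference of the 6, with 36503, 34305 and 32619 CPM in Sst against 40680 and 47864 CPM in Thy1.

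**Figure D1:**
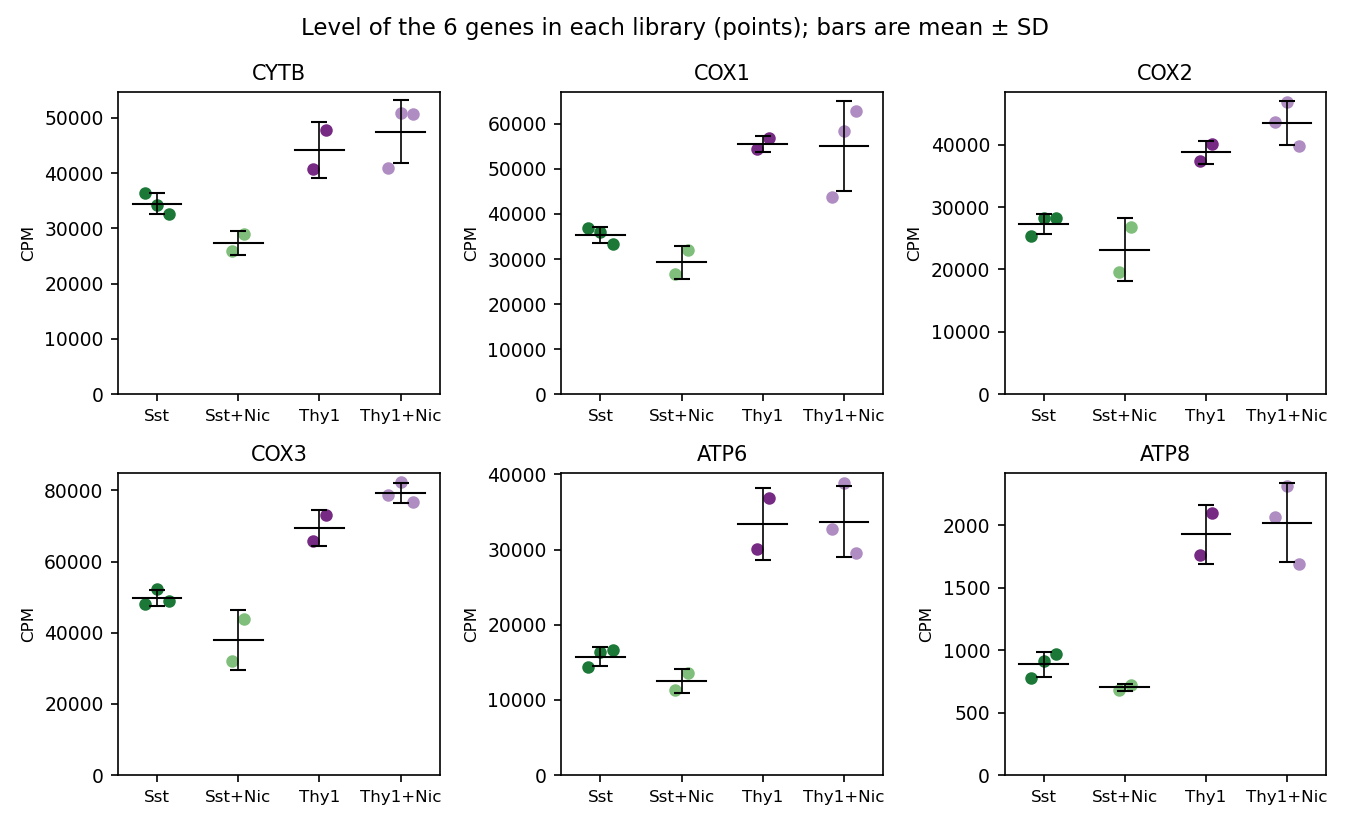
Level of each of the 6 genes in CPM (y axis, from 0) for the 10 libraries (points) in the 4 groups (x axis), with a line at the group mean and error bars of 1 SD. Every Thy1-neuron library lies above every Sst-neuron library within the same treatment, and the ATP6 and ATP8 panels show the largest fold difference.

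Counts were tested in edgeR (quasi-likelihood fit after TMM scaling), and a gene counted as a DEG, or called, when its Benjamini-Hochberg adjusted p was under 0.05 and its log2 fold change was beyond 1 in either direction. Replicates are separate mice, 2 or 3 per group. Under saline, ATP6 was called lower in Sst-neurons (log2 fold change -1.25 ± 0.22, SE, adjusted p = 0.0483 in edgeR). It was the only member of 6 to be called, where 0.898% of the 6350 entries tested were called lower. All 6 fitted values were below 0, as were 48.3% of entries. ATP8 had a log2 fold change of -1.28 ± 0.25 with an adjusted p of 0.0634 in edgeR and so was not called. The other 4 genes had log2 fold changes between -0.82 (COX1) and -0.54 (CYTB) and were not called, with adjusted p-values up to 0.216 in edgeR. The median of the 6 was -0.75, beside 0.05 over all entries tested. All 6 had groups that did not overlap in CPM, with Sst lower, where 15.3% of the entries tested did so. The call of ATP6 was narrow, since it was lost whenever any 1 library was left out. Without Thy1 replicate 3, which leaves 1 Thy1 library that is assumed to vary like the others, ATP6 was at -1.01 (adjusted p = 0.347 in edgeR), and the values without each of the other libraries ran from -1.52 to -1.16. The other members without that library were at -1.07 for ATP8, -0.71 for COX1, -0.54 for COX2, -0.48 for COX3 and -0.33 for CYTB. With every library kept, all 6 had an unadjusted p under 0.05 in edgeR, and the share of all entries below that limit is not given here. In a fit on position-checked entries alone the median of the 6 was -0.57, and ATP6 and ATP8 were called, where 6.57% of 502 entries were called in either direction. DESeq2, limma voom, all libraries in 1 fit, no filter and a filter of 10 or more counts in 1 library each called ATP6 and ATP8 of the 6. These settings called 8.87%, 1.72%, 1.97%, 3.28% and 2.89% of all entries in either direction. In contrast, RLE size factors, uniquely mapped reads as library sizes or the replicate number as a block called 0 of the 6. With uniquely mapped reads, 3 of the 6 had an unadjusted p under 0.05 in edgeR. As a percent of uniquely mapped read pairs CYTB, alone of the 6, overlapped between the groups. It was at 0.740%, 0.922% and 0.835% in Sst and at 0.878% and 1.16% in Thy1.

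After nicotine, all 6 genes were again lower in Sst-neurons. ATP6 was at 11355 and 13619 CPM in Sst+Nic against 32801, 38787 and 29553 CPM in Thy1+Nic. ATP8 was at 680 and 723 CPM in Sst+Nic against 2063, 2313 and 1688 CPM in Thy1+Nic. COX3 was at 32096 and 43974 CPM in Sst+Nic against 78778, 82261 and 76672 CPM in Thy1+Nic. For each of the 6 genes both Sst+Nic libraries were below all 3 Thy1+Nic libraries in CPM, where 8.66% of the 6509 entries tested were lower in this way. Fitted log2 fold changes ran from -2.04 ± 0.34 (SE) for ATP8 to -1.29 ± 0.29 for CYTB, with a median of -1.47 beside 0.09 over all entries tested, of which 47.3% were below 0. With edgeR 0 of the 6 were called, as their adjusted p-values lay between 0.0562 and 0.126, where 0.277% of entries were called lower. The unadjusted p-values of all 6 were under 0.05, beside 15.7% of entries. All 6 were called lower with DESeq2, with limma voom, with all libraries in 1 fit, with no filter and with 10 or more counts in 1 library, and the highest adjusted p-values there were 0.0007, 0.0215, 0.019, 0.00268 and 0.00842. These settings called 7.8%, 0.999%, 1.27%, 2.65% and 2.91% of all entries in either direction. RLE size factors, totals or uniquely mapped reads as library sizes, the replicate block and each library left out in turn called 0 of the 6, with adjusted p-values of 0.0507 to 0.636 in edgeR. On position-checked entries the median of the 6 was -1.24, and ATP6 and ATP8 were called, where 3.31% of 514 entries were called in either direction. These 2 comparisons of cell types share no library.

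The size of these changes depended on how libraries were scaled. With totals as library sizes and no TMM, the median over all entries moved to 0.22 under saline and to 0.59 after nicotine, and the medians of the 6 were -0.58 and -0.98. All 6 stayed below 0. When the mitochondrially encoded counts themselves were the library size, the members split: CYTB, COX2 and COX3 were above 0 under saline and CYTB, COX1 and COX2 after nicotine, whereas ATP6 (-0.44 and -0.49) and ATP8 (-0.48 and -0.57) stayed below 0 in both. In such pooled samples, less mitochondrial RNA per cell, more of the other counted RNA and fewer cells of a type cannot be told apart.

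**Figure D2:**
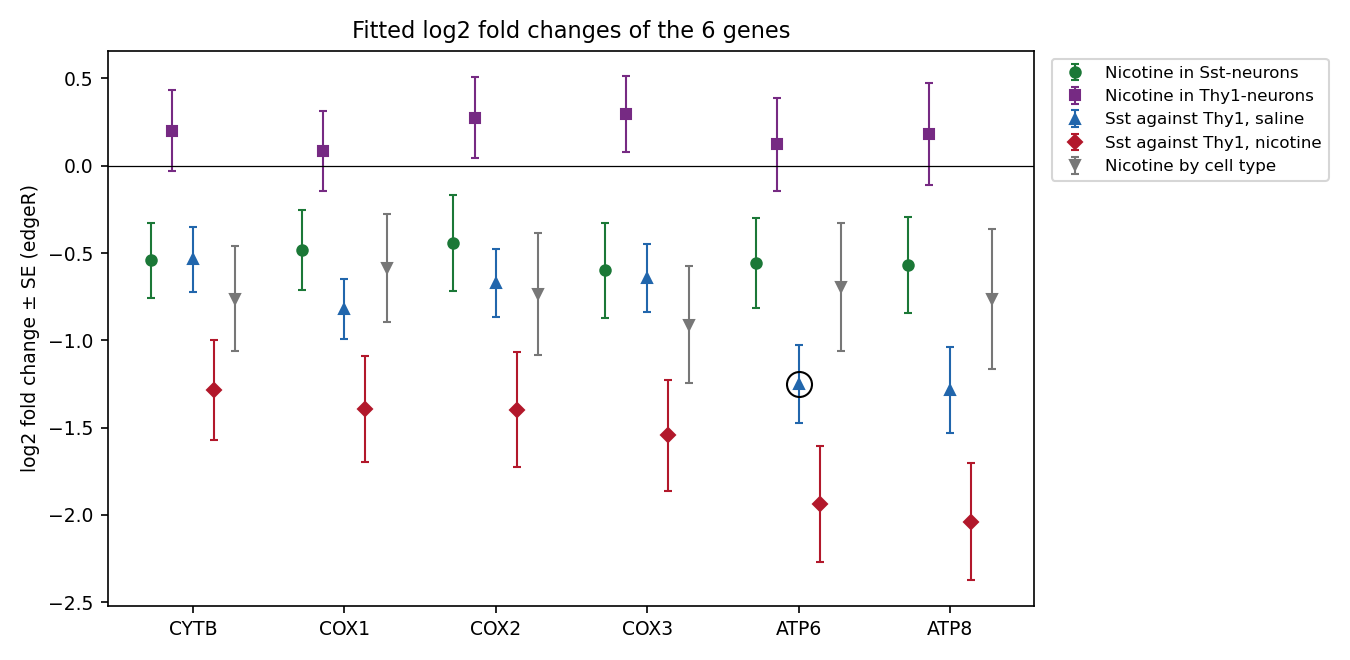
Fitted log2 fold change of each gene (y axis, edgeR, points with error bars of 1 SE) in the 5 comparisons, with Sst-neurons minus Thy1-neurons, nicotine minus saline, and for nicotine by cell type the Sst-neuron effect less the Thy1-neuron effect. The ring marks ATP6 under saline, the only value called, and the nicotine values lie below 0 in Sst-neurons and above 0 in Thy1-neurons.

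No member was called for nicotine against saline in either cell type, nor was any entry (0% of entries called in both fits). In Sst-neurons, all 6 had log2 fold changes below 0, as did 47.1% of entries, and for 5 of them, all but COX2, both Sst+Nic libraries were below the 3 Sst libraries in CPM (4 of 6 on TMM-normalized levels), where 4.78% and 7.92% of entries were lower in this way. CYTB was at 25884 and 28954 CPM in Sst+Nic, below the 32619 to 36503 CPM of Sst. COX1 was at 26710 and 31917 CPM, below 33360 to 36791 CPM. COX2 was at 19570 and 26800 CPM and overlapped the 25389 to 28234 CPM of Sst. In all of them replicate 2 of Sst+Nic, the library with the lowest total, was the lower of the pair. Log2 fold changes lay between -0.60 (COX3) and -0.44 (COX2), with SEs of 0.21 to 0.28 and adjusted p-values of 1.00 in edgeR. Of 6689 entries 0 were called by edgeR, 280 (4.19%) had an unadjusted p under 0.05, and DESeq2 called 19, none of them a member. CYTB was the only member with an unadjusted p under 0.05 in edgeR (log2 fold change -0.54 ± 0.21, SE). Without Sst+Nic replicate 2 the median of the 6 was -0.33, and without Sst+Nic replicate 3 it was -0.83.

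In Thy1-neurons, fitted log2 fold changes lay between 0.08 (COX1) and 0.30 (COX3), with SEs of 0.22 to 0.29, and 49.8% of entries were above 0 like these 6. COX3 was at 78778, 82261 and 76672 CPM in Thy1+Nic, above the 65919 and 73026 CPM of Thy1, and was the only 1 of the 6 with groups apart in CPM, where 7.18% of entries were higher in this way. On TMM-normalized levels 0 of the 6 were apart, beside 9.51% of entries. COX1 ranged from 43759 to 62941 CPM in Thy1+Nic and enclosed both Thy1 libraries. CYTB, ATP6 and ATP8 overlapped as well. Of 6048 entries, 0 were called by edgeR, 264 (4.37%) had an unadjusted p under 0.05, and DESeq2 called 14, none of them a member. Without Thy1 replicate 3 the median of the 6 was 0.44, in place of 0.19, and without Thy1 replicate 2 it was 0.004, with 3 of the 6 below 0.

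The nicotine effects differed between the cell types by -0.91 ± 0.33 (log2, SE) for COX3 and -0.76 ± 0.30 for CYTB, the 2 members with an unadjusted p under 0.05 in this test. None of the 6 was called in edgeR (adjusted p = 0.673 to 0.713), and 0 of the 8242 entries were, with 604 (7.33%) at an unadjusted p under 0.05 and 11 called by DESeq2. The median of the 6 was -0.75, beside -0.03 over all entries, of which 50.7% were below 0. Without 1 library it ran from -0.50 (without Sst+Nic replicate 2) to -0.96 (without Sst+Nic replicate 3 and without Thy1 replicate 3). COX3 was at -0.59 without Sst+Nic replicate 2. In CPM, COX3 was the only member whose nicotine and saline libraries were apart in opposite directions in the 2 cell types, where 2.04% of entries were, and on TMM-normalized levels 0 of the 6 were, beside 2.03% of entries. As a percent of uniquely mapped read pairs COX3 overlapped in Sst-neurons.

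The 7 complex I genes gave a reference within the same genome. Under saline all 7 were lower in Sst-neurons, with a median log2 fold change of -1.08, and 2 were called, where 0.898% of 6350 entries were called lower. Without any 1 of the Sst libraries all 7 were lower and 0 were called. Without Thy1 replicate 3 all 7 were lower, with a median of -0.79 and 0 called. After nicotine all 7 were lower, with a median of -1.41 and 0 called. In the nicotine comparisons 0 of the 7 were called, with medians of -0.29 in Sst-neurons and -0.04 in Thy1-neurons. Single libraries moved both medians. The first ran from -0.09 without Sst+Nic replicate 2 to -0.70 without Sst+Nic replicate 3, and the second from -0.30 without Thy1+Nic replicate 2 to 0.20 without Thy1 replicate 3. Of 41 nuclear genes of complexes III, IV and V, 40 have an entry, and only Atp5j, a subunit of the ATP synthase stalk, lies in such a stretch, on chromosome 16, where it was not compared on its own. Atp5j was at 4.23, 5.87 and 20.5 CPM in Sst and at 0 and 1 count in Sst+Nic. It was at 3.72 and 0.275 CPM in Thy1 and at 0, 0 and 5.60 CPM in Thy1+Nic. With 0 or 1 count in at least 1 library of 3 groups no fold change is given for it, and it had adjusted p-values of 0.617 to 1.00 in the edgeR comparisons in which it was tested (lowest unadjusted p = 0.0190 in edgeR, nicotine in Sst-neurons).

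Per kb of gene length, the order of the 6 genes was stable at its ends. COX3 was the highest and COX2 the second in all 10 libraries, and ATP8 was the lowest in all 10. In Sst, COX3 was at 63569 ± 2945 CPM per kb (SD, n = 3), COX2 at 39868 ± 2382, CYTB at 30136 ± 1702, ATP6 at 23163 ± 1822, COX1 at 22904 ± 1164 and ATP8 at 4353 ± 497. ATP6 and COX1 did not differ beyond their spread there. In Thy1, ATP6 was at 49091 ± 7008 CPM per kb (SD, n = 2) and stood above CYTB at 38699 ± 4441 and COX1 at 35976 ± 1156. ATP6 was the next after COX2 in 4 of the 5 Thy1-neuron libraries and in 0 of the 5 Sst-neuron libraries, where CYTB was the next in all 5. The exception was Thy1+Nic replicate 3, with CYTB at 44367 and ATP6 at 43397 CPM per kb.

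Shares of the mitochondrially encoded counts do not depend on the library total. The 6 genes together held 75.8% ± 0.39 of the counts on the 13 mitochondrially encoded protein genes in Sst (SD, n = 3), 72.5% ± 1.51 in Sst+Nic (n = 2), 72.4% ± 0.484 in Thy1 (n = 2) and 75.2% ± 2.35 in Thy1+Nic (n = 3). The 3 complex IV genes took between 47.7% and 52.9% in all 10 libraries. Complex V took 7.72% ± 0.637 in Sst and 7.31% ± 0.117 in Sst+Nic, against 10.5% ± 0.610 in Thy1 and 10.3% ± 1.05 in Thy1+Nic. ATP6 was at 6.68%, 7.39% and 7.85% in Sst, 6.98% and 6.87% in Sst+Nic, 9.49% and 10.3% in Thy1 and 10.4%, 10.1% and 8.60% in Thy1+Nic. ATP8 was at 0.361%, 0.414% and 0.459% in Sst, 0.418% and 0.365% in Sst+Nic, 0.557% and 0.588% in Thy1 and 0.656%, 0.600% and 0.492% in Thy1+Nic. For both genes the 5 Thy1-neuron libraries were above the 5 Sst-neuron libraries. CYTB went the other way, at 16.0% ± 0.889 in Sst and 15.3% ± 0.925 in Sst+Nic against 13.1% ± 0.409 in Thy1 and 13.7% ± 0.963 in Thy1+Nic, and only Thy1+Nic replicate 3 (14.8%) reached into the Sst-neuron range.

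**Figure D3:**
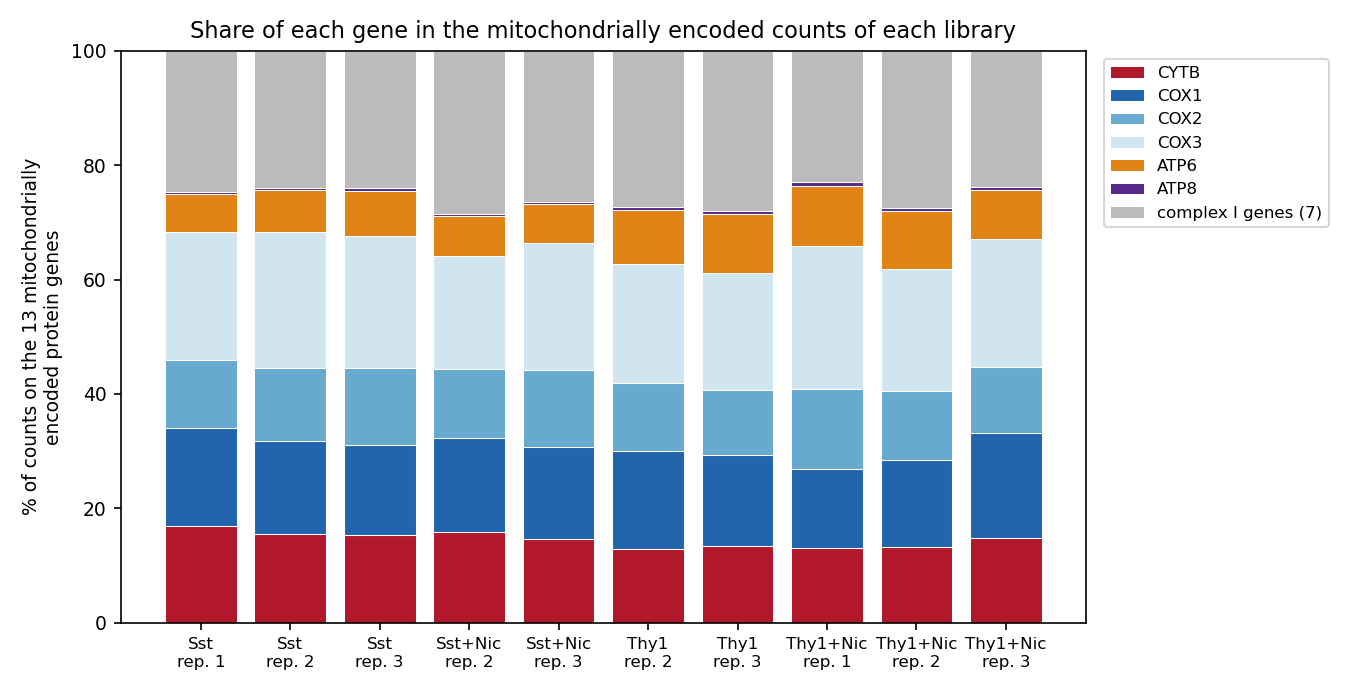
Percent of the counts on the 13 mitochondrially encoded protein genes (y axis) that fell on each of the 6 genes and on the 7 complex I genes, in each library (x axis). The ATP6 part is between 6.68% and 7.85% in the 5 Sst-neuron libraries and between 8.60% and 10.4% in the 5 Thy1-neuron libraries.

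The shares were tested with two-sided exact permutation tests over libraries. Cell type was permuted within each treatment and nicotine within each cell type, which gives 100 arrangements and a smallest p of 0.01, and p-values were adjusted over 39 tests (13 genes in 3 contrasts). The difference in share, Sst-neurons minus Thy1-neurons, was -2.69 percentage points for ATP6 and -0.176 points for ATP8, each with the smallest p of the exact permutation test (p = 0.01, adjusted p = 0.195). The CYTB share was 2.21 points higher in Sst-neurons (exact permutation p = 0.02, adjusted p = 0.195). Cell type differences in the shares of COX1, COX2 and COX3 were 0.141, 0.65 and 0.231 points, with exact permutation p-values of 0.88, 0.31 and 0.84. For COX3 this averages a difference of 2.43 points under saline, without overlap (exact permutation p = 0.1, the smallest possible with 3 against 2 libraries), and one of -1.96 points after nicotine, with overlap (exact permutation p = 0.4). For COX1 the 2 differences were -0.163 and 0.445 points, also of opposite sign. For nicotine over both cell types the 6 shares had exact permutation p-values of 0.39 to 0.97. None of the tests passed after adjustment. Without Thy1 replicate 3 the cell type differences were -2.48 points for ATP6, -0.168 for ATP8 and 2.35 for CYTB, with exact permutation p-values of 0.025, 0.025 and 0.05 (adjusted p = 0.4875).

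The COX3 share was lower after nicotine in Sst-neurons and higher in Thy1-neurons. It was 22.4%, 23.7% and 23.2% in Sst and 19.7% and 22.2% in Sst+Nic, whereas it was 20.8% and 20.5% in Thy1 and 25.1%, 21.3% and 22.3% in Thy1+Nic. The saline and nicotine libraries did not overlap in either cell type. The difference of the 2 nicotine effects was -4.39 percentage points (exact permutation p = 0.02, adjusted p = 0.195), and -4.22 without Thy1 replicate 3 (exact permutation p = 0.15).

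Ratios within a library compared the complexes with each other. The counts of ATP6 and ATP8 together were 13.7%, 14.8% and 15.9% of those of the 3 COX genes in Sst and 15.4% and 14.0% in Sst+Nic. They were 20.2% and 22.9% in Thy1 and 21.0%, 21.9% and 17.4% in Thy1+Nic, so that all 5 Thy1-neuron libraries were above all 5 Sst-neuron libraries. On the log2 scale the ratio of ATP to COX was 0.49 lower in Sst-neurons, a difference of -0.49 (exact permutation p = 0.01, adjusted p = 0.09 over 18 tests). It was -0.54 under saline and -0.45 after nicotine, which alone cannot go below an exact permutation p of 0.1. The ratio of CYTB to ATP was 0.68 higher in Sst-neurons on the log2 scale (exact permutation p = 0.01, adjusted p = 0.09). Counts of CYTB were 185% to 241% of the ATP counts in the Sst-neuron libraries and 117% to 162% in the Thy1-neuron libraries, again with no overlap. The ratio of CYTB to COX differed less, by 0.19 (exact permutation p = 0.02, adjusted p = 0.12), and overlapped between the cell types. Without Thy1 replicate 3 the difference in the ratio of ATP to COX was -0.45 and that in the ratio of CYTB to ATP was 0.67, each with the smallest exact permutation p then possible, 0.025.

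**Figure D4:**
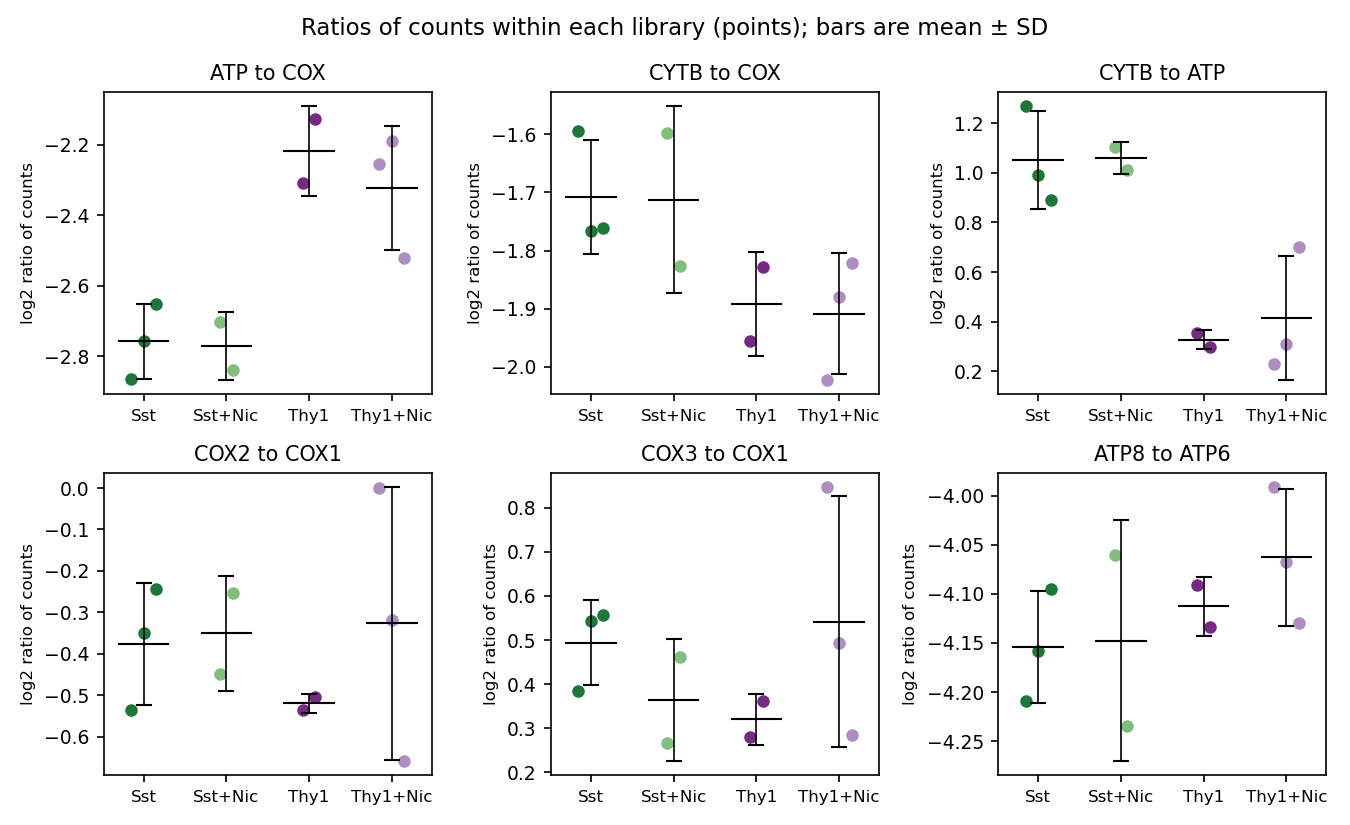
Log2 ratio of counts (y axes, not starting at 0) between complexes and between genes of 1 complex, for the 10 libraries (points) in 4 groups (x axis), with a line at the group mean and error bars of 1 SD. In the panels of ATP to COX and CYTB to ATP the 2 cell types do not overlap, and in the lower 3 panels they do.

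Within complexes the ratios overlapped between the cell types over the 10 libraries. ATP8 counts were between 5.31% and 6.29% of ATP6 counts in all 10 libraries, a span of 0.24 on the log2 scale, and the cell type difference was -0.06 (exact permutation p = 0.22, adjusted p = 0.792). The part of fragments over the 43 shared bases in this ratio was not tested. COX2 counts were 63.3% to 99.9% of COX1 counts, and both ends of that range were Thy1+Nic libraries, replicate 3 and replicate 1. COX3 counts were 120% to 180% of COX1 counts, with Thy1+Nic replicate 1 again the highest. Differences between cell types in these 2 ratios were 0.06 and -0.002 on the log2 scale (exact permutation p = 0.65 and 0.99). The second averages 2 differences of opposite sign. The log2 ratio of COX3 to COX1 was 0.17 higher in Sst-neurons under saline, without overlap (exact permutation p = 0.2), and differed by -0.18 after nicotine, with overlap (exact permutation p = 0.4). For none of the 6 ratios did the nicotine effect over both cell types (exact permutation p = 0.47 to 0.95) or the difference of the nicotine effects (exact permutation p = 0.15 to 0.95) pass the test.

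Across the 10 libraries the 6 genes fell into pairs by their levels. By Pearson's r of log2(CPM + 1), the mitochondrially encoded protein gene most like ATP6 was ATP8 (0.996) and the reverse, COX2 and COX3 were most like each other (0.987), and CYTB and COX1 were most like each other (0.969). The least alike were ND3 for CYTB (0.550) and COX1 (0.494) and ND5 for the other 4 (0.540 to 0.698). These values describe 10 libraries that share the 2 cell types and their totals. CYTB and COX1 lie far apart on the genome, whereas ATP6 overlaps ATP8.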

How the data were processed

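RNA of hand-aspirated neurons was amplified with SMARTer Ultra Low and NuGEN Ovation kits and sequenced in paired ends. The authors aligned reads to GRCm38 with TopHat and deposited raw counts, that is fragments per gene entry without normalization; per the labels HTSeq was used for counting, and its settings, versions and annotation are not given in the sources used here. Of 12 samples, 10 had a column that could be used, and groups follow the labels. Entries were compared with group values in the supplementary tables of the study. For this, a scale factor for each library was fitted to the listed values of the mitochondrially encoded genes. These genes differed from the listed values by 0.000118% after the fit (root mean square, 12 genes in Sst). That value is the residual of the fit, not a difference of unscaled entries. With the same factors, 992 of 1323 nuclear entries held under 5% of the listed value. Nuclear genes are therefore named only from the 891 entries in checked stretches of chromosomes. Counts were divided by library totals for CPM.

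Each pair of groups was fitted on its own 5 libraries, and the interaction on all 10, with edgeR 4.0.16 in R 4.3.3 (TMM, filterByExpr with a minimum count of 10). The fit was first run on simulated data with larger changes than those of the members. The simulated spread was below the common dispersion of the real fits (0.826 to 1.19), so that run does not measure error or power here. Standard errors were derived from the fold change and test statistic. Permutation tests, shares and ratios used Python 3.11.15 with numpy 2.4.6, pandas 2.3.3 and scipy 1.17.1. Alternatives were DESeq2 1.42.0, limma 3.58.1 (voom with quality weights), RLE factors, other library sizes, other filters, no fold-change threshold, the replicate number as a block, other denominators and averaging, and each library left out. A fit on position-checked entries, mitochondrially encoded counts as library sizes, and mitochondrial rRNA in the denominator of shares were added after seeing the data. All 6 members are named in each comparison. The members and lists were chosen with earlier results of these data known. Copies were searched with blastn in GENCODE M21 transcripts. Precision is set by the replicates, since each member held at least 1984 counts per library; the limit of 3 counts is 0.615 to 1.03 CPM, and such limits cover counting error only.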

Additional observations from a re-analysis of the deposited data

Results flagged for a closer look

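COX3 was the only member for which every nicotine library moved one way against saline in Sst-neurons and the opposite way in Thy1-neurons, both as a share of the mitochondrially encoded counts and in CPM. The nicotine effect on the share was -2.13 percentage points in Sst-neurons and 2.26 in Thy1-neurons, a difference of -4.39 (exact permutation p = 0.02, adjusted p = 0.195 over 39 tests). In CPM 2.04% of 8242 entries had libraries apart in opposite directions like this, and on TMM-normalized levels COX3 overlapped in Thy1-neurons. In CPM the difference of the 2 effects was -21567, and in the edgeR fit of the interaction COX3 had an adjusted p of 0.673. Of the 10 libraries that hold this pattern, Thy1+Nic replicate 1 had the highest COX3 share (25.1%) and Sst+Nic replicate 2 the lowest (19.7%). Groups of 2 or 3 libraries are too small for the test of single samples that lie far from the rest.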

How the results depend on the processing

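With edgeR, 1 of the 6 genes was called lower in Sst-neurons under saline. It was 2 with DESeq2, limma voom, no filter, 10 or more counts in 1 library, a fit of all libraries or position-checked entries. It was 0 with RLE size factors, uniquely mapped reads or mitochondrially encoded counts as library sizes, the replicate block, and each library left out in turn (0 to 0). After nicotine it was 0 with edgeR, 6 with DESeq2, limma voom, no filter, 10 or more counts in 1 library or a fit of all libraries, and 2 with position-checked entries. Over all entries the calls were 109 under saline, against 563 with DESeq2 and 186 with mitochondrially encoded counts as library sizes, all of 6350 entries tested. They were 454 of 13830 with no filter, 266 of 9201 with 10 or more counts in 1 library and 33 of 502 position-checked entries. After nicotine they were 33, against 508 with DESeq2, 378 with mitochondrially encoded counts as library sizes and 65 with limma voom, all of 6509. They were 356 of 13428 with no filter, 275 of 9464 with 10 or more counts in 1 library, 105 of 8242 in a fit of all libraries and 17 of 514 position-checked entries. In the nicotine contrasts 0 members were called under any setting.

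The replicate numbers mark only a number: deviations of same-numbered libraries correlated at -0.093 to 0.029 (median -0.011, 13 pairs), beside 0.007 for 24 other pairs. With the replicate number as a block, edgeR called 59 entries under saline and 9 after nicotine and 0 of the 6 genes in either. The blocked cell type differences were -0.45 for ATP to COX and 0.58 for CYTB to ATP. Sign changes under the block were the nicotine ratios CYTB to COX (0.046), COX2 to COX1 (-0.011), COX3 to COX1 (-0.059) and ATP8 to ATP6 (-0.0037), and the cell type ratio COX3 to COX1 (0.10).

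Permuted without strata, the cell type ratios ATP to COX (-0.48) and CYTB to ATP (0.68) passed (exact permutation, adjusted p = 0.0476 over 12 tests, without the interactions that are among the 18 tests with strata, so the smaller number of tests is part of this change), and the nicotine ratios ATP to COX (0.040) and CYTB to ATP (-0.089) changed sign. With summed counts the interaction of CYTB to COX was -0.032 and the cell type ratio COX3 to COX1 0.022. As shares of all counted fragments, which is another quantity, the cell type differences of CYTB, COX1, COX2 and COX3 were -1.50, -2.30, -1.59 and -3.04 percentage points, and 7 of 18 tests of the members passed, against 0. These were adjusted with the complex I genes over 39 tests. As p cannot go below 0.01, a pass depends on how many tests of that family reach it. The number of complex I tests that passed is not given here. With mitochondrially encoded counts as library sizes, log2 fold changes that changed sign were COX2 for nicotine in Sst-neurons (0.015), COX1 (-0.066) and ATP6 (-0.030) in Thy1-neurons, CYTB (0.28), COX2 (0.13) and COX3 (0.16) under saline, CYTB (0.16), COX1 (0.040) and COX2 (0.024) after nicotine, and COX1 in the interaction (0.054). COX1 for nicotine in Thy1-neurons was -0.014 with totals and no TMM and -0.0058 with position-checked entries.

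Without 1 library, ratios that changed sign ran, for cell type, from -0.024 to 0.14 (COX2 to COX1) and -0.066 to 0.075 (COX3 to COX1). For nicotine they ran from -0.015 to 0.072 (ATP8 to ATP6), -0.031 to 0.11 (COX3 to COX1), -0.024 to 0.10 (CYTB to ATP) and -0.068 to 0.046 (CYTB to COX). For the interaction they ran from -0.0098 to 0.18 (ATP to COX), -0.13 to 0.044 (ATP8 to ATP6), -0.17 to 0.065 (CYTB to ATP) and -0.10 to 0.13 (CYTB to COX). Nicotine in Thy1-neurons ran from -0.085 to 0.41 for ATP6, -0.0094 to 0.44 for ATP8 and -0.024 to 0.24 for COX1, and cell type shares from -0.33 to 0.77 points for COX1 and -0.38 to 0.84 for COX3. The cause of these changes was not tested, apart from the other denominator and the smaller number of libraries.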
